A study of Mus musculus with 6 samples.

Results

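The genes described here are tumor necrosis factor (TNF), 3 receptors of its family, 3 subunits of the transcription factor NF-κB and 3 genes that NF-κB induces and that act back on the pathway. They were chosen by name, with earlier results of these data known. The genes are Tnf, Tnfrsf1a, Tnfrsf1b, Tnfrsf12a, Nfkb1, Nfkb2, Relb, Nfkbia, Tnfaip3 and Birc3, which are 10 of the 54532 genes in the deposited tables. All 10 passed the filter on low counts and were among the 15816 genes tested. Kidney RNA of 3 WT and 3 Trpm2-/- mice was sequenced, and the labels give the mice as C57BL/6J, 6 to 8 weeks old and genotype TRPM2-KO for the second group. Every mouse of both groups had received cisplatin at 18 mg/kg, an anti-tumor drug that injures renal tubules, and kidneys were taken after 72 h, so the difference measured is between genotypes in injured kidneys. Trpm2 encodes a calcium-permeable cation channel opened under oxidative stress, and the knockout allele, by the methods, carries an internal deletion that leaves no working channel. The methods describe purchased WT mice and a Trpm2-/- line brought in from another university, and give an older age range than the labels. Genotype and colony of origin therefore cannot be told apart.

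TNF is a cytokine that signals through TNFR1, present on most cells, and TNFR2, found mainly on leukocytes, endothelium and injured epithelium. Occupied TNFR1 gathers adaptor proteins and ubiquitin ligases that switch on the IκB kinase complex. This kinase marks the inhibitor IκBα for destruction and frees NF-κB dimers to enter the nucleus. Among the genes then transcribed are IκBα itself and A20, which end the signal, and NF-κB subunits, which renew it. TNF produced in the kidney is a known mediator of cisplatin nephrotoxicity in mice.

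The library totals were between 14053307 and 17150089 counts, and 3 counts, a floor for counting error alone, would be at most 0.213 CPM (counts relative to the library total). Trpm2 itself had 5, 5 and 27 counts in WT libraries and 10, 16 and 20 counts in Trpm2-/- libraries (log2 fold change 0.36, adjusted p = 0.776 from edgeR). A count over the whole gene includes the exons that the allele keeps, so it does not check the genotype. Genes of the mitochondrial genome took 4.43% to 4.72% of counts in WT libraries and 7.91% to 11.0% in Trpm2-/- libraries. Malat1, a nuclear noncoding RNA, was at 942 to 1218 CPM in WT and 2290 to 2609 CPM in Trpm2-/- libraries. The part of these differences in the results below was not tested. Each library is 1 mouse. The smallest p that an exact permutation test of 3 mice against 3 can give is 0.1, so the tests are those of edgeR (quasi-likelihood), with p-values adjusted over all 15816 genes after Benjamini and Hochberg, and a gene is said to have passed, risen or fallen at an adjusted p under 0.05.

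In Trpm2-/- kidneys, the transcripts of the 3 NF-κB subunits chosen (Nfkb1, Nfkb2 and Relb), of the inhibitor IκBα and of the ubiquitin ligase cIAP2 (Birc3) rose. TNF and its main receptor TNFR1 did not differ beyond the spread between mice. The subunit genes outside the 10, Rela and Rel, did not pass. Of the 10 genes, 5 were higher at an adjusted p under 0.05 in edgeR (6 in the DESeq2 Wald test) and 0 were lower in either. At an unadjusted p under 0.05, 8 were higher and 0 lower in edgeR. Among all genes tested, 4.74% were called higher and 7.28% lower at an adjusted p under 0.05 in edgeR, the background for the 5. The DESeq2 Wald test called more of all genes, 6.33% higher and 8.97% lower, the background for the 6. The share of all genes at an unadjusted p is not given here, so the 8 cannot be read against it. All 10 log2 fold changes were above 0, with a median of 0.62, whereas the median over all tested genes was 0.02 and 51.6% of them were above 0. In 5 of the 10 genes every Trpm2-/- library was above every WT library, against 16.7% of all genes tested. Because the 10 were chosen with earlier results of these data known, these comparisons with all genes are not independent tests. With 1 mouse left out, edgeR called 7 of the 10 higher without Trpm2-/- replicate 4 and 4 without Trpm2-/- replicate 2, but only 2 without WT replicate 1 or Trpm2-/- replicate 1 and only 1, Birc3, without WT replicate 2 or 3. Over all genes tested, 160 to 819 were called higher in these fits, the fewest without WT replicate 3 (160) and 2 (176). These are libraries of kidney tissue with its cell types mixed, in which fewer cells of a type and less RNA per cell cannot be told apart.

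**Figure D1:**
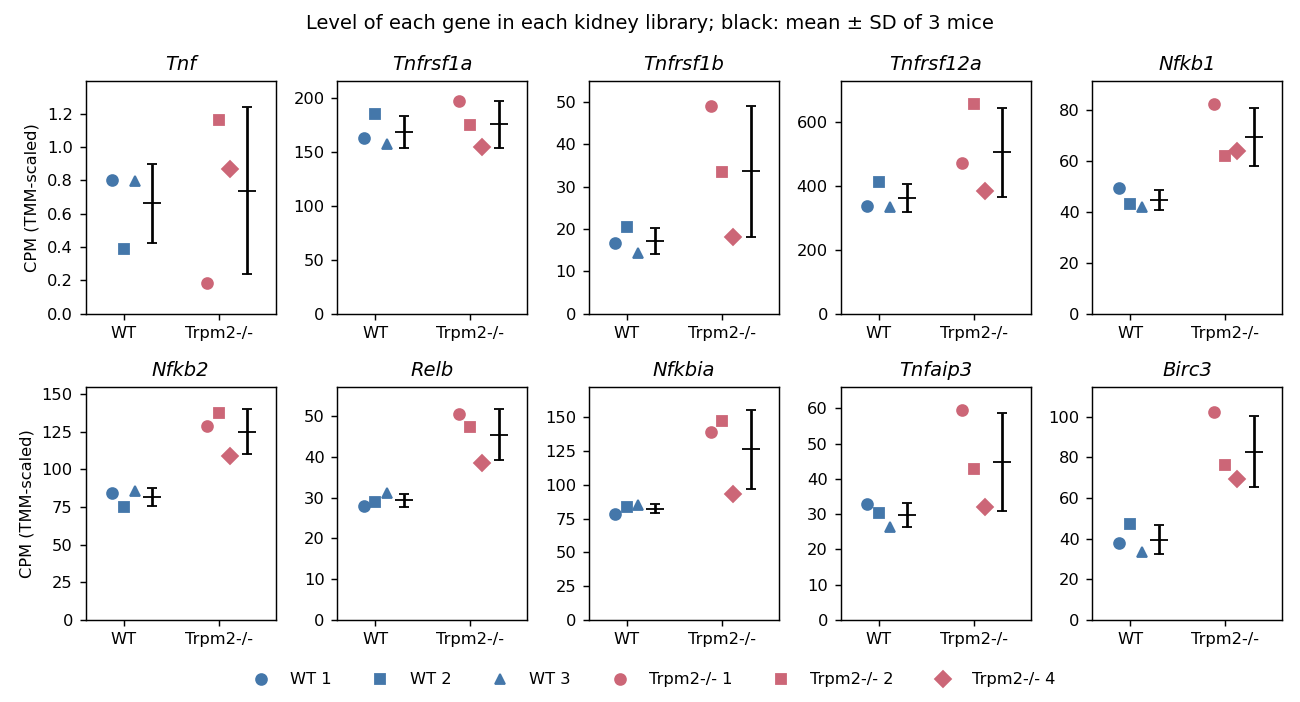
CPM (TMM-scaled, axis from 0) of the 10 genes in each library, with WT in blue, Trpm2-/- in red, a marker shape for each mouse number and the mean ± SD of 3 mice in black. The 3 red points lie above the 3 blue points for Nfkb1, Nfkb2, Relb, Nfkbia and Birc3, and overlap them for the other 5 genes.

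By level per length, FPKM as deposited, the 10 genes spanned a wide range in WT kidneys. Tnfrsf12a was highest at 164 ± 20.3 FPKM (SD, n = 3), above 98.0% of tested genes. It was followed by Tnfrsf1a at 56.9 ± 5.06, Nfkbia at 44.7 ± 1.72 and Nfkb2 at 21.7 ± 1.56 FPKM, each separated from the next over all 3 WT mice. Birc3 (6.89 ± 1.25 FPKM) and Relb (6.61 ± 0.362 FPKM) could not be ranked against each other. Likewise, Tnfrsf1b (3.92 ± 0.702), Tnfaip3 (3.62 ± 0.422) and Nfkb1 (3.25 ± 0.296 FPKM) lay within the spread of their neighbours. Tnf was lowest at 0.353 ± 0.127 FPKM, above 10.2% of tested genes. In Trpm2-/- kidneys the order of the means was the same, except that Nfkbia (69.1 ± 15.7 FPKM) passed Tnfrsf1a (59.8 ± 7.17 FPKM), a pair whose spreads overlapped there.

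Tnf (ENSMUSG00000024401, chromosome 17, 35199381 to 35202007, minus strand), the ligand, was close to the limit of detection. It had 13, 6 and 13 counts in WT libraries 1, 2 and 3, and 3, 17 and 14 counts in Trpm2-/- libraries 1, 2 and 4. The groups overlapped, and both the lowest and the highest value were in Trpm2-/- mice. The log2 fold change was 0.14 with a 95% interval from -1.29 to 1.58 (adjusted p = 0.913 from edgeR), so a change of more than 2-fold in either direction was within the error. Its sign turned under several settings, to -0.33 without Trpm2-/- replicate 2.

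Tnfrsf1a (chromosome 6, 125349362 to 125362484), which encodes TNFR1, the receptor with a death domain, had 163, 185 and 157 CPM in WT mice and 198, 175 and 154 CPM in Trpm2-/- mice. The highest and the lowest of the 6 values both came from Trpm2-/- mice. Its log2 fold change was 0.06 (95% interval -0.25 to 0.38, adjusted p = 0.816 from edgeR), an interval narrow enough to leave out a change of 1.5-fold, and the sign turned to -0.03 without Trpm2-/- replicate 1. Tnfrsf1b (chromosome 4, 145213463 to 145246870), which encodes TNFR2, the receptor without a death domain, had 16.6, 20.4 and 14.4 CPM in WT mice and 49.1, 33.6 and 18.2 CPM in Trpm2-/- mice 1, 2 and 4. Mice 1 and 2 lay above every WT mouse and mouse 4 lay among them. With a log2 fold change of 0.98 (standard error, SE, 0.311), Tnfrsf1b did not pass in edgeR (adjusted p = 0.0716). Without Trpm2-/- replicate 4 it was 1.29 with an adjusted p of 0.00853, and without Trpm2-/- replicate 1 it was 0.59 with an adjusted p of 0.217 (edgeR). The DESeq2 Wald test on all 6 mice gave an adjusted p of 0.0120.

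Tnfrsf12a (chromosome 17, 23675445 to 23677468, minus strand) encodes Fn14, the receptor of the ligand TWEAK, and is known to be induced in injured epithelium. Its levels were 338, 414 and 335 CPM in WT mice and 473, 658 and 385 CPM in Trpm2-/- mice 1, 2 and 4. Mouse 4 was again inside the WT range, below WT mouse 2. The log2 fold change was 0.48 (SE 0.204, edgeR adjusted p = 0.158) and ranged from 0.24 to 0.65 with each mouse left out. The ligand gene Tnfsf12, one of the wider list of TNF superfamily ligands below, had a log2 fold change of 0.41 (adjusted p = 0.206 from edgeR).

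The 3 subunit genes moved by similar amounts. Nfkb1 (chromosome 3, 135584655 to 135691547, minus strand) encodes p105, the precursor of p50. It had 49.3, 43.0 and 42.0 CPM in WT mice and 82.4, 61.7 and 63.9 CPM in Trpm2-/- mice, with no overlap. Nfkb2 (chromosome 19, 46304737 to 46312090, plus strand) encodes p100, an inhibitor that is cut to p52 in the noncanonical pathway. Its levels were 84.4, 74.9 and 85.7 CPM in WT mice and 129, 138 and 109 CPM in Trpm2-/- mice. Relb (chromosome 7, 19606217 to 19629438, minus strand) encodes the usual partner of p52. WT mice had 27.9, 28.8 and 31.2 CPM of Relb, and Trpm2-/- mice had 50.5, 47.5 and 38.5 CPM. For both genes, the lowest Trpm2-/- mouse, number 4, was still above the highest WT mouse.

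The log2 fold changes were 0.63 for Nfkb1 (SE 0.150, adjusted p = 0.0262), 0.62 for Nfkb2 (SE 0.136, adjusted p = 0.0201) and 0.63 for Relb (SE 0.142, adjusted p = 0.0211), all by edgeR. As folds these are 1.55, 1.53 and 1.55. The direction held with every mouse left out in turn, but the calls did not, as expressed by the adjusted p of the same edgeR test on 5 mice. For Nfkb1 it was 0.121 without WT replicate 2, 0.135 without WT replicate 3 and 0.0520 without Trpm2-/- replicate 1. For Nfkb2 it was 0.0509, 0.117 and 0.0837 without WT replicates 1, 2 and 3. For Relb it was 0.0684, 0.0980 and 0.0773 without WT replicates 1, 2 and 3, and 0.0542 without Trpm2-/- replicate 1. The effect stayed between 0.49 and 0.75 on the log2 scale over these 18 fits.

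Nfkb2 needs a reservation about counting, because 11.6% of its annotated exon bases also belong to AC114539.1 and 6.52% to Psd, both on the opposite strand, and it is not stated whether strand was used. Together 13.6% of its 75-base windows occur in these genes, and AC114539.1 had no entry under its identifier among the counted genes. These shares come from the GENCODE M21 annotation, with 4584 exon bases for Nfkb2. The length given with the counts was 3289 bases, so the shares may differ for the gene as counted. Psd had 308 to 350 counts in WT libraries and 290 to 374 in Trpm2-/- libraries, against 1165 to 2104 for Nfkb2. Canonical subunits outside the 10 genes did not pass. Rela, which encodes p65, had a log2 fold change of 0.21 (adjusted p = 0.291), and Rel had 0.36 (adjusted p = 0.423), both from edgeR.

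Nfkbia (chromosome 12, 55489410 to 55492647, minus strand) encodes IκBα, the inhibitor that holds NF-κB in the cytoplasm and that NF-κB itself induces. It had 78.5, 83.9 and 84.7 CPM in WT mice, a narrow range, and 139, 147 and 92.8 CPM in Trpm2-/- mice 1, 2 and 4. All 3 Trpm2-/- values were above the WT values, with mouse 4 nearest to them. The log2 fold change was 0.62 (SE 0.175), a 1.53-fold rise, at an adjusted p of 0.0496 in edgeR, only just under the threshold. It was 0.00711 without Trpm2-/- replicate 4. The adjusted p rose to 0.129, 0.152 and 0.160 without WT replicates 1, 2 and 3, to 0.125 and 0.105 without Trpm2-/- replicates 1 and 2 (edgeR), and to 0.0590 with limma-voom on all 6 mice.

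Tnfaip3 (chromosome 10, 19000910 to 19015657, minus strand) encodes A20, a ubiquitin-editing enzyme that shuts off signaling downstream of TNFR1. Its levels were 33.0, 30.4 and 26.3 CPM in WT mice and 59.5, 42.9 and 32.0 CPM in Trpm2-/- mice 1, 2 and 4. Mouse 4 fell within the WT range, so the groups overlapped. The log2 fold change was 0.58 (SE 0.213, edgeR adjusted p = 0.107), and it was 0.79 without Trpm2-/- replicate 4 (adjusted p = 0.0300) and 0.32 without Trpm2-/- replicate 1 (adjusted p = 0.283).

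Birc3 (chromosome 9, 7848699 to 7873186, minus strand) encodes cIAP2, a ubiquitin ligase of the TNF receptor complexes that also restrains cell death. WT mice had 38.0, 47.2 and 33.2 CPM, and Trpm2-/- mice 1, 2 and 4 had 102, 76.4 and 69.5 CPM. The lowest Trpm2-/- mouse was well above the highest WT mouse. The difference, 1.07 on the log2 scale (SE 0.186, edgeR adjusted p = 0.00740) or 2.10-fold, was the largest of the 10. The call held in all 6 edgeR fits with 1 mouse left out, with adjusted p-values from 0.00747 to 0.0432 and log2 fold changes from 0.88 to 1.22. By the threshold of the methods, an absolute log2 fold change above 1 and an unadjusted p under 0.05, Birc3 alone of the 10 was called, while 3.50% of all tested genes were called higher and 4.10% lower. It dropped below that size without Trpm2-/- replicate 1 (0.88) or WT replicate 3 (0.95). Of the 75-base windows of Birc3 transcripts, 3.88% also occur in other genes, its neighbour and paralog Birc2 among them.

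**Figure D2:**
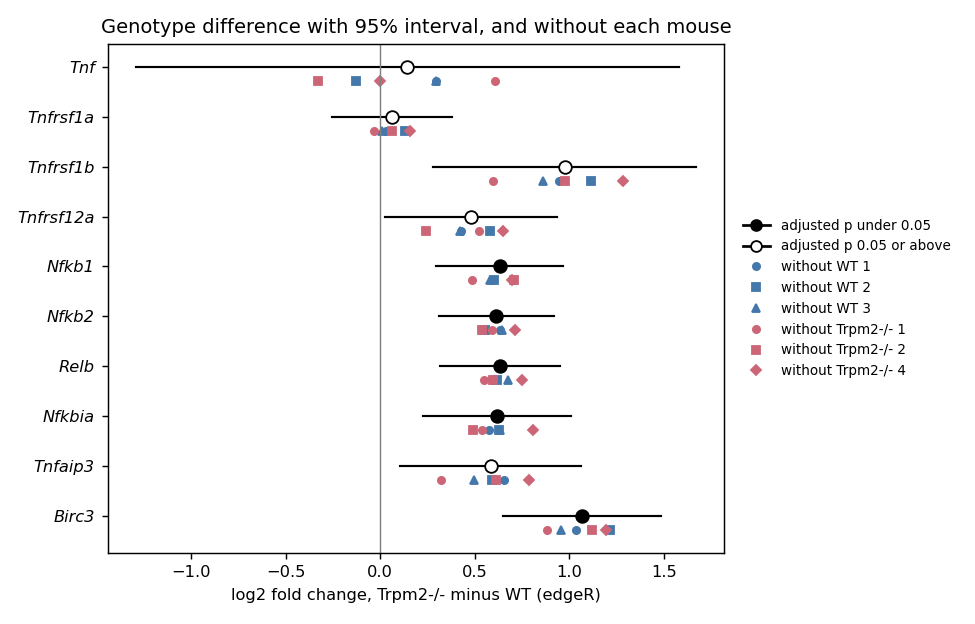
log2 fold change (Trpm2-/- minus WT, edgeR) of each gene as a circle with its 95% interval, filled at an adjusted p under 0.05, and below it the value with each mouse left out. Birc3 at 1.07 stands farthest to the right of the filled circles, Nfkb1, Nfkb2, Relb and Nfkbia lie between 0.62 and 0.63, and the intervals of Tnf and Tnfrsf1a cross 0.

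Since NF-κB binds DNA at κB sites, the sequence before the start of the called genes is shown with the κB-type letters in it. RefSeq windows of 300 bases (GRCm38.p6, 250 before and 50 after a start) were found for 8 of the 10 genes, 11 windows in all, and not for Nfkb1 and Relb. They were searched on both strands for κB-type matches of 10 bases in 3 nested forms. The strict form was GGG, any 2 bases and TTTCC, the looser form, which includes it, GGG, any 3 bases and TTCC, and the loosest, which includes both, GGG, any 5 bases and CC. The strict form was found for 3 of these 8 genes, Nfkbia, Nfkb2 and Tnfaip3, and the looser form for the same 3, whereas 1.89% of all genes with a window held the first and 6.31% the second. The loosest form was found for all 8, but also for 53.5% of all genes. Each is a match of letters in a window and not a measured binding site, and genes with more windows have more chances of a match. The stretch before the start of Nfkbia is chr12:55492648-55492897 on the minus strand, and the capitals mark GGGAATTTCC read on the opposite strand, 29 bases before the start.
Nfkbia: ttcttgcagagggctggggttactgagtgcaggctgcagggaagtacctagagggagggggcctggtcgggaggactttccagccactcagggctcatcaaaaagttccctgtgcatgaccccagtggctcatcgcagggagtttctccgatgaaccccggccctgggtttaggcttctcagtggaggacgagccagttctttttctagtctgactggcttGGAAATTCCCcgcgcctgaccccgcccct

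For Nfkb2, which has 3 windows, only the matches before the start in the first of them and 7 bases on each side are shown, at chr19:46304692-46304715 and chr19:46304719-46304742 on the plus strand, because the window lies within an exon of another annotated Nfkb2 transcript. The capitals mark GGGGAATTCC on the opposite strand, 38 bases before the start, and GGGGCTTTCC on the same strand, 11 bases before it. The other windows also held GGGACATTCC at position -236 from the start of the second, on the opposite strand, and GGGACTTTCC at position -225 from the start of the third, which are not shown in context.
Nfkb2 distal match: cgtcacgGGAATTCCCCccctcgg
Nfkb2 proximal match: gccgaaaGGGGCTTTCCcggctgg

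Birc3, the gene with the largest difference, is shown for contrast. Its stretch at chr9:7873187-7873420 on the minus strand held neither the strict nor the looser form, which says only that these letters are not in this window.
Birc3: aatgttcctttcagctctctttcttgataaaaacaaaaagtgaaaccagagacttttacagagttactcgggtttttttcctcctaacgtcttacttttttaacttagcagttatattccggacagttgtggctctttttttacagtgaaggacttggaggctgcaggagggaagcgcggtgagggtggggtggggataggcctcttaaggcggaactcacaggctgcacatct

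The 3 Trpm2-/- mice were not alike in these genes. Mouse 1 had the highest of all 6 values in 6 of the 10 genes and mouse 2 in the other 4, while mouse 4 was the highest in 0 and the lowest Trpm2-/- mouse in 8. Over all tested genes, mice 1, 2 and 4 were the highest Trpm2-/- mouse in 34.2%, 32.3% and 33.5%. Mouse 4 was the lowest Trpm2-/- mouse in 32.2% of them. The coefficient of variation was larger in Trpm2-/- than in WT mice for all 10 genes, and for 68.9% of all tested genes. For Tnfrsf1b it was 46.0% in Trpm2-/- against 17.8% in WT mice, and for Nfkbia 23.2% against 4.07%. Mouse 4 also had the highest share of counts on the mitochondrial genome, 11.0%, and the highest summed levels of podocyte, endothelial and fibroblast markers, whose part in its lower values was not tested.

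Ratios between 2 genes of the same library do not depend on how libraries are scaled, and 7 of them were formed from the FPKM values after the levels had been seen. TNFR2 transcript per TNFR1 transcript (Tnfrsf1b to Tnfrsf1a) was 0.069, 0.075 and 0.062 in WT mice and 0.169, 0.130 and 0.080 in Trpm2-/- mice 1, 2 and 4. Every Trpm2-/- mouse was above every WT mouse, as was also the case for the ratios of Tnfrsf12a to Tnfrsf1a, Birc3 to Birc2, Relb to Rela and Nfkbia to Nfkbib. Relb to Rela went from 0.196 ± 0.012 in WT to 0.262 ± 0.035 in Trpm2-/- mice, and Nfkbia to Nfkbib, its less inducible relative, from 2.21 ± 0.314 to 3.92 ± 0.877 (SD, n = 3). In these 5 ratios the two-sided exact permutation test gave 0.1, its smallest value. Birc3, Relb and Nfkbia were already separated between genotypes by CPM, so their ratios are not separate evidence. The groups overlapped in the other 2 ratios, with Nfkb2 to Nfkb1 at 6.72 ± 0.669 in WT and 6.72 ± 1.30 in Trpm2-/- mice, and Tnfaip3 to Nfkbia at 0.081 ± 0.012 and 0.079 ± 0.015 (SD, n = 3). With Benjamini-Hochberg adjustment over the 7 ratios, no p could go below 0.1.

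**Figure D3:**
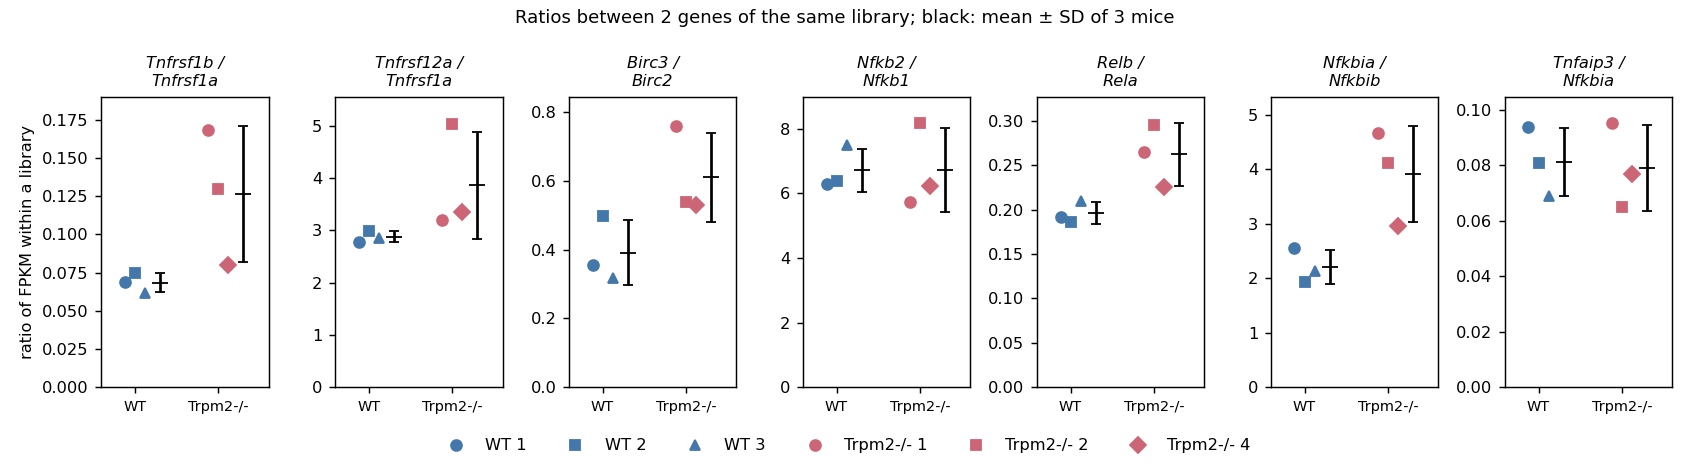
Ratio of the FPKM of 2 genes within each library (axes from 0), with WT in blue, Trpm2-/- in red and the mean ± SD of 3 mice in black. The red points lie above the blue points in 5 ratios, and the ratios of Nfkb2 to Nfkb1 and of Tnfaip3 to Nfkbia overlap.

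The rest of the pathway was described with 6 lists of 116 genes compiled from general knowledge, of which 87 were tested. At an adjusted p under 0.05 in edgeR, 11 of them were higher and 1 was lower, 12.6% and 1.15% of those tested, and the median log2 fold change was 0.21. The share called higher was thus above the 4.74% of all genes, but below the share among the 10 genes. The lists were chosen with earlier results of these data known, so this comparison is not an independent test. Without WT replicate 2 or 3, 6 or 5 genes of these lists were called higher.

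Among other TNF superfamily receptors, 16 of 24 genes were tested and 4 rose, with a median of 0.46 over the list. Tnfrsf23 and Tnfrsf22, decoy receptors of TRAIL, rose by 1.38 and 0.99 on the log2 scale (adjusted p = 0.00335 and 0.0105 from edgeR). These neighbouring genes share sequence, with 13.7% and 20.8% of their 75-base windows found elsewhere. Tnfrsf10b, the signaling TRAIL receptor and a known p53 target, rose by 0.74 on the log2 scale, from 29.4 ± 2.06 to 49.2 ± 1.13 CPM (SD, n = 3, edgeR adjusted p = 0.00578). Eda2r, a receptor of ectodysplasin and also a p53 target, rose by 0.97 (adjusted p = 0.0195 from edgeR). The call of Tnfrsf22 was lost without WT replicate 2 (adjusted p = 0.0621), and that of Eda2r without WT replicate 2 (0.0783) or 3 (0.0922). Of 17 other ligands, 6 were tested and 1 rose, Tnfsf15 (TL1A), from a low 0.375 ± 0.186 to 1.65 ± 0.601 CPM (SD, n = 3, adjusted p = 0.0308 from edgeR). That call was lost without WT replicate 2 or 3 or Trpm2-/- replicate 1 (adjusted p = 0.118, 0.145 and 0.103), and 11 ligand genes, Lta, Ltb and Fasl among them, had too few counts to be tested.

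All 26 genes of receptor-proximal adaptors, kinases and ubiquitin ligases were tested, and 3 rose by small amounts. Casp8, the initiator caspase recruited by death receptors, rose by 0.65 on the log2 scale (adjusted p = 0.00947 from edgeR). Map3k7, which encodes the kinase TAK1, rose by 0.47 (adjusted p = 0.0339) and Ikbkb, the IκB kinase subunit IKKβ, by 0.43 (adjusted p = 0.0471). The call of Casp8 was lost without WT replicate 3 (adjusted p = 0.0660). For Map3k7 only the fits without Trpm2-/- replicate 1 or 2 kept the call, and the others gave 0.0707 to 0.187. For Ikbkb only the fit without Trpm2-/- replicate 1 kept it, and the others gave 0.0715 to 0.201. Birc2, the paralog of Birc3, had a log2 fold change of 0.41 (adjusted p = 0.0521 from edgeR), so both cIAP genes were above 0 but only Birc3 passed, and their difference was not tested beyond the ratio above.

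Of 8 other subunits and IκB proteins, Nfkbiz, which encodes the nuclear protein IκBζ, was the 1 that rose, from 61.8 ± 5.10 to 105 ± 14.2 CPM (SD, n = 3, adjusted p = 0.00947 from edgeR, 0.0660 without WT replicate 3). Of 13 deubiquitinases and A20 partners, 12 were tested and 0 passed in edgeR in either direction, with 3 higher and 0 lower at an unadjusted p under 0.05. No share of all genes at an unadjusted p is given beside these counts. Of 28 NF-κB-induced inflammatory and survival genes, 19 were tested, 2 rose and 1 fell. Cxcl2, a neutrophil-attracting chemokine, rose by 1.48 (adjusted p = 0.00609) and Ptgs2, cyclooxygenase-2, by 1.84 (adjusted p = 0.00913), both from edgeR and both called with every mouse left out. Sod2, the mitochondrial superoxide dismutase and another NF-κB target, went the opposite way, with 227, 264 and 274 CPM in WT mice and 182, 142 and 157 CPM in Trpm2-/- mice. It fell by 0.67 on the log2 scale (adjusted p = 0.0189 from edgeR, 0.0883 and 0.101 without WT replicates 2 and 3). Of the 75-base windows of Sod2 transcripts, 16.2% also occur in other genes. Il6, Il1b and Nos2 were among the 9 genes of this list with too few counts to be tested.

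**Figure D4:**
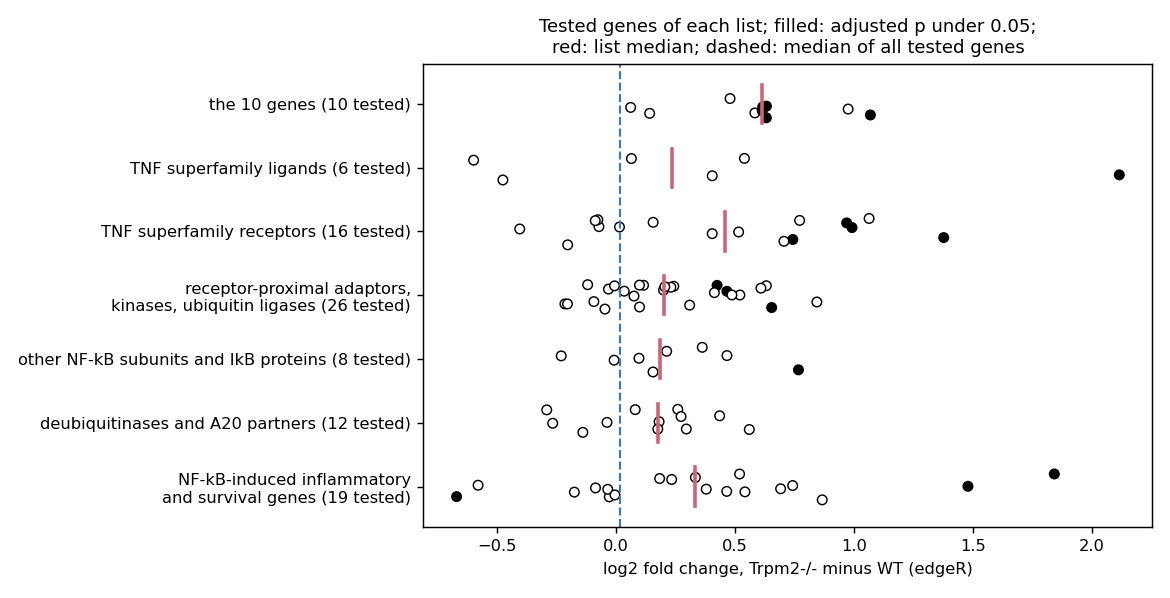
log2 fold change (Trpm2-/- minus WT, edgeR) of the tested genes of each list, filled at an adjusted p under 0.05, with the list median in red and the median of all tested genes (0.02) as a dashed line. The 10 genes have the rightmost median at 0.62, the other lists have medians from 0.18 to 0.46, and Sod2 is the single filled point below 0.

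Markers of kidney cell types moved with genotype as well. Proximal tubule markers, led by Slc34a1 and Aqp1, summed to 2727 to 3576 CPM in WT libraries and 797 to 1209 CPM in Trpm2-/- libraries, and 8 of 8 fell. Markers of the loop, distal tubule and collecting duct summed to 2061 to 3240 CPM and 839 to 1598 CPM, with 2 of 7 tested lower. Tubular injury markers, led by Spp1 and Havcr1, summed to 14688 to 16314 CPM in WT and 16277 to 23234 CPM in Trpm2-/- libraries, with 2 of 6 higher and Trpm2-/- mouse 1 the highest. These sums overlapped, with Trpm2-/- mouse 2 below WT mouse 2. The 2 that passed, Krt20 and Sox9, had log2 fold changes of 0.79 and 1.16 (adjusted p = 0.0189 and 0.0115 from edgeR). Every Trpm2-/- library was above every WT library for both, and for Havcr1, which did not pass (adjusted p = 0.0747 from edgeR). The groups overlapped for Spp1, Lcn2 and Vcam1. Spp1 made up most of each sum and did not pass (log2 fold change 0.23, adjusted p = 0.561 from edgeR). The part of these shifts in the NF-κB genes was not tested.

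The summed levels of leukocyte markers overlapped between genotypes. Macrophage and monocyte markers, led by Cd68 and Csf1r, summed to 111 to 158 CPM in WT and 95.1 to 149 CPM in Trpm2-/- libraries, with 0 of 10 higher and 2 lower in edgeR. The 2 were C1qa and C1qc, with log2 fold changes of -2.03 and -1.88 (adjusted p = 0.0401 and 0.0421 from edgeR), though their CPM overlapped between genotypes. Lyz2 of this list, higher at an unadjusted p of 0.0168 (adjusted p = 0.0911 from edgeR), did not pass but lay above WT in all 3 Trpm2-/- mice. It had 43.1 CPM in Trpm2-/- mouse 1 but 12.6 CPM in mouse 2, close to the 12.1 CPM of WT mouse 3. Neutrophil markers summed to 3.02 to 13.2 and 6.21 to 12.5 CPM, with Mpo at 0 in every library. Of this list Csf3r, the receptor of a granulocyte growth factor, had 5, 22 and 19 counts in WT and 52, 32 and 77 counts in Trpm2-/- mice, without overlap (log2 fold change 1.81, edgeR adjusted p = 0.0549). It did not pass, and the median log2 fold change over the 5 tested neutrophil markers was -0.12. T and NK cell markers reached at most 3.89 CPM in any library, with Ncr1 at 0 in every library, and B cell markers at most 2.90 CPM. Endothelial markers overlapped between genotypes at 116 to 191 CPM and 58.9 to 207 CPM, with 1 of 7 lower, and the top value was in Trpm2-/- mouse 4. That mouse also had the highest podocyte sum, 510 CPM, where the other 5 libraries had 130 to 173 CPM, and the highest fibroblast and pericyte sum, 187 CPM against 70.9 to 102 CPM. Urothelial markers, part of the renal pelvis, summed to 49.2 CPM in WT mouse 1 and to 6.37 to 12.0 CPM in the others.

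**Figure D5:**
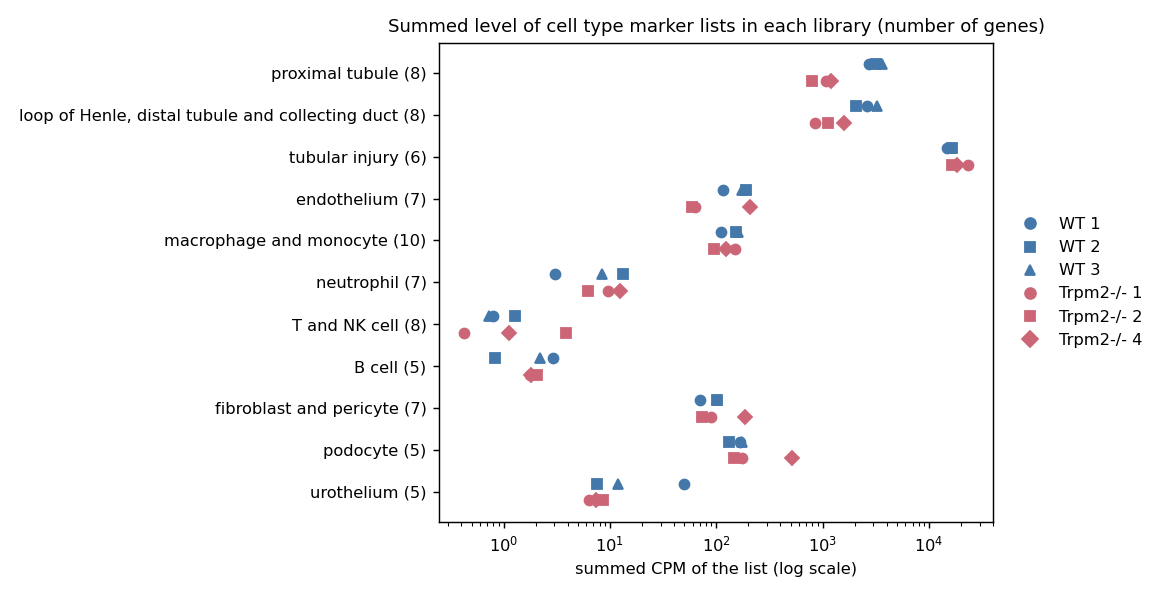
Summed CPM of each cell type marker list in each library, on a log axis, with WT in blue and Trpm2-/- in red. Proximal and distal tubule markers lie lower in all 3 Trpm2-/- libraries, macrophage, neutrophil and lymphocyte markers overlap, and Trpm2-/- mouse 4 stands apart in podocyte markers.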

How the data were processed

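The authors deposited whole-number read counts per gene, not normalized, and FPKM values (counts scaled by gene length and library size) for 6 libraries. The submitters' processing notes name HISAT2, StringTie and mm9. Gene positions equal those of GENCODE M21 (GRCm38) for 98.3% of shared genes and for 9 of the 10 genes described (all but Nfkb2), so coordinates are given as deposited, on GRCm38. The counting tool and the use of strand are not given in the sources used here. The counts were tested in edgeR 4.0.16 under R 4.3.3 (filterByExpr, TMM, genotype only, two-sided quasi-likelihood test). The SE is the size of the log2 fold change over the square root of F. CPM uses TMM-scaled library sizes. Genes named are the 10, Trpm2, up to 4 passing genes of each list with the smallest p, and the 2 highest genes of marker lists. Other genes (Rela, Rel, Tnfsf12, Birc2, Nfkbib, Psd, Lyz2, C1qa, C1qc, Csf3r, Krt20, Sox9, Lcn2, Vcam1, Malat1, and genes at 0 or untested) were named after their values were seen. AC114539.1 was named for its overlap with Nfkb2. The 10 genes and all lists were chosen with earlier results of these data known. Alternatives used DESeq2 1.42.0 and limma 3.58.1. Replicates differed by more than sampling noise (chi-square per degree of freedom 13.5 to 36.7). Tests were checked on simulated data.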

Additional observations from a re-analysis of the deposited data

How the results depend on the processing

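Log2 fold changes of the 5 called genes kept their direction in every alternative run, and the median over all genes stayed between 0.00 and 0.07. The replicate numbers do not pair these different mice (correlation of deviations 0.06 and -0.01 for numbers 1 and 2). With them as a block, WT replicate 3 and Trpm2-/- replicate 4 each stood alone under their number and added nothing to the genotype difference. That fit therefore compared only replicates 1 and 2 of each genotype and is not a check on all mice. It called 5 of the 10 genes higher (Tnfrsf1b in, Nfkb1 out), 2 at the threshold of the methods. Its other counts were 341 genes higher and 661 lower in all and 7 higher and 0 lower in the pathway lists. Limma on log2(FPKM + 1) called 3, 0 by the methods' threshold, 304 and 754 in all and 7 pathway genes higher, with log2(FPKM + 0.1) 3, 338 and 7, and with no filter on FPKM 0, 0, 105, 405, 3 and, lower, 0. The unfiltered count fit called 1262 genes higher and 2 pathway genes lower. Upper-quartile scaling put 2 of the 10 past the methods' threshold. Leaving out each mouse, with 5 mice and less power, gave 1 to 7 of the 10 genes higher, 0 lower, 0 to 2 past the methods' threshold, 160 to 819 genes higher and 470 to 1240 lower in all, and 5 to 11 higher and 0 to 1 lower pathway genes. Tnf turned to -0.13 in limma-voom, -0.017 on log2(FPKM + 0.1) and -0.054 with the replicate block, and ranged from -0.33 to 0.61 with mice left out (-0.13 without WT replicate 2, -0.0011 without Trpm2-/- replicate 4). Tnfrsf1a ranged from -0.033 (without Trpm2-/- replicate 1) to 0.16, and Trpm2 from -0.024 (without WT replicate 1; -0.0064 without 2) to 1.61. Apart from the smaller samples and gene sets, the cause was not tested. A mean of at least 1 CPM left out Tnf.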
